A study of Mus musculus with 2 samples.

Results

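A total of 10941 autosomal 200 bp bins were rich in CpG and already methylated in wild-type osteoblasts. They were chosen as bins with at least 20 CG cytosines listed in either library (both strands counted), at least 60 calls in each library and a methylation level of at least 60% in the WT library. A call is 1 sequenced base read as methylated or unmethylated at 1 cytosine, and a level is the share of methylated calls among all calls of the bin. They made up 68.6% of the 15945 CpG-dense bins with that depth, among 8254636 autosomal bins with any CG call. Of the other CpG-dense bins, 4182 were below 20% in WT and 822 lay from 20% to below 60%.

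Whole genome bisulfite sequencing (WGBS) was done on primary osteoblasts of 3-day-old C57BL/6 mice after 3 days of culture, with 1 WT library and 1 TCKO library. The TCKO (triple conditional knockout) mouse carried Prx1-Cre and was fl/fl at each of Tet1, Tet2 and Tet3, where the Cre driver acts in limb and skull mesenchyme, so cells of other origin in a culture would keep their Tet genes. The labels call the control animal wild type and do not say whether it carried floxed alleles or Cre. Each genotype is 1 library, so no value below has a replicate check between animals. The files hold no expression values, so the osteoblast label was not checked here. The WT library held 261127589 calls and the TCKO library 223645082, and on the autosomes 70.4% and 76.6% of calls were methylated. A chosen bin had between 60 and 1368 WT calls (median 129) and between 60 and 1349 TCKO calls (median 108).

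Most CpG-rich DNA of mammals lies in CpG islands, which sit at gene starts and are kept free of methylation. Methylated CpG-rich DNA is known from imprinted control regions, germline gene promoters, retrotransposons, gene bodies and exons. Among the CpG-dense bins deep enough to be used here it was the larger part (68.6%). Among those under the depth limit with at least 20 WT calls it was 25.4%. DNMT enzymes place and maintain the methyl group on cytosine, and TET enzymes oxidise 5-methylcytosine to 5-hydroxymethylcytosine as a step towards its removal. Bisulfite sequencing reads both forms as methylated.

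The sequences below show what such bins look like. All are single-copy bins without a UTR, read from the plus strand of GRCm38, with each CG dinucleotide in capitals. The Dact3 bin held more CpGs than any other chosen bin (38), in a coding exon of a gene for an antagonist of Wnt signalling. The Grb10 bin held 34 CpGs in the promoter of an imprinted growth factor receptor adaptor. The Kcnq1ot1 bin (25 CpGs) and the Peg10 bin (23 CpGs) lie in imprinted genes, and the Plec bin (18 CpGs) is coding sequence of the cytoskeletal linker plectin. The Mov10l1 bin (12 CpGs) and the Hormad1 bin (11 CpGs) lie at the starts of a piRNA helicase gene and a meiotic chromosome axis gene.
Dact3 chr7:16885601-16885800: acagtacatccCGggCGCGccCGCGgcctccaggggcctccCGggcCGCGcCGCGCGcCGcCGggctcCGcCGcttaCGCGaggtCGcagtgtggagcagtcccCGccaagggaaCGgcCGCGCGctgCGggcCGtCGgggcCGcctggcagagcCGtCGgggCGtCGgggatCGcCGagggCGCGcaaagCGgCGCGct
Grb10 chr11:12026401-12026600: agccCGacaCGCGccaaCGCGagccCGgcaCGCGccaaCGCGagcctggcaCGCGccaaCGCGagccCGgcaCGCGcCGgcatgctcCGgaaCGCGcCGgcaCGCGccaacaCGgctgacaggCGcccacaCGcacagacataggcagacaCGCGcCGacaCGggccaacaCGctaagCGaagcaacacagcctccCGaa
Kcnq1ot1 chr7:143295601-143295800: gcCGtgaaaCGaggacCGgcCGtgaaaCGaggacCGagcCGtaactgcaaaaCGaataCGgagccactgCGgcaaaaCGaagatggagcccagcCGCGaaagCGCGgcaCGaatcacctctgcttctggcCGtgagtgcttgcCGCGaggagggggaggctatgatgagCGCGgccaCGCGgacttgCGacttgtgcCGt
Peg10 chr6:4748201-4748400: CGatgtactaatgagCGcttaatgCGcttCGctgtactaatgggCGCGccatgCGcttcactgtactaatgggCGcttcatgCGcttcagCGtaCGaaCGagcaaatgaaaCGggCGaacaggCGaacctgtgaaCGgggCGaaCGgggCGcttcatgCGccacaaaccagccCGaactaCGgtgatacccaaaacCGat
Plec chr15:76179801-76180000: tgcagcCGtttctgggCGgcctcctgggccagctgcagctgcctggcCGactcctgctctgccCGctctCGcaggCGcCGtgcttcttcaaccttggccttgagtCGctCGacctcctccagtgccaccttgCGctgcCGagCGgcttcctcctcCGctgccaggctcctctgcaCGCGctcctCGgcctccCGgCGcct
Mov10l1 chr15:88982601-88982800: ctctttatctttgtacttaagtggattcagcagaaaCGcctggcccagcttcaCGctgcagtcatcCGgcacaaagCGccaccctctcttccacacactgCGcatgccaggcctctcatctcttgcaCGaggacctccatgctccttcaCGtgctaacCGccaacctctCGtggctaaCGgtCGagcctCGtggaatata
Hormad1 chr3:95559801-95560000: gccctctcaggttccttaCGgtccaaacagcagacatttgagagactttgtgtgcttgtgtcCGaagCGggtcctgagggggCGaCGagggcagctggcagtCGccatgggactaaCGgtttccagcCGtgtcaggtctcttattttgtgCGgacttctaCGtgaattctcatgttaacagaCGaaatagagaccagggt

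The chosen bins stayed highly methylated in TCKO. Their median level was 89.0% in WT (quartiles 83.5% and 92.8%) and 90.5% in TCKO (quartiles 85.9% and 93.8%). In TCKO 10869 of them, or 99.3%, were still at or above 60%. The difference, TCKO minus WT, had a median of 1.32 percentage points with quartiles of -2.13 and 5.21. Pooled over all their calls the level was 87.7% in WT and 89.2% in TCKO, a difference of 1.44 points (95% interval 1.37 to 1.52 by the Newcombe method, which covers counting error only). It was 1.44 points on the plus strand and 1.45 on the minus strand. Since the WT level chose the bins, these differences are a description and were not tested.

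By direction, 6573 bins (60.1%) were higher in TCKO, 4351 were lower and 17 were equal. In 9499 bins (86.8%) the libraries differed by 10 points or less. Only 144 bins, or 1.32%, were higher by at least 20 points, where 9.13% of all 561423 autosomal bins with at least 4 CG cytosines and 60 calls in each library were. In the other direction 53 bins, or 0.484%, were lower by at least 20 points, where 0.232% of all those bins were. The rule caps a gain at 40 points and used the WT level, so nothing is read from these shares. The differences had an SD of 6.84 points, while the counts of calls alone give 4.22.

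**Figure D1:**
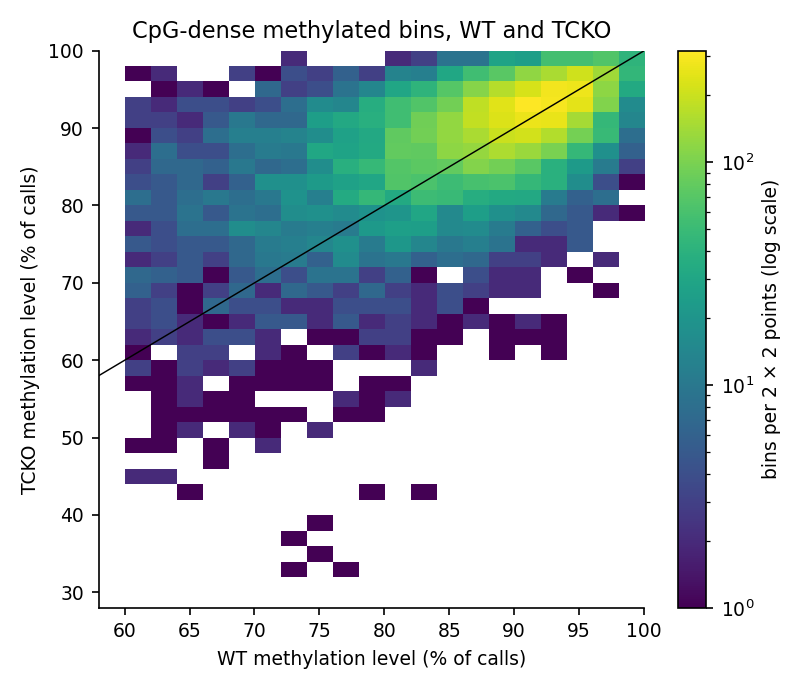
WT level (x axis, % of calls) against TCKO level (y axis, % of calls) of the 10941 bins, with the colour giving the number of bins per square of 2 by 2 points on a log scale and the line marking equal levels. Most bins crowd along the line at the upper right, and 2 bins lie lower by more than 40 points.

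The counting error understates the true one. Calls of 1 read are not independent, and a read can span several of the closely spaced CpGs. Within the WT library, 4749 of the bins had at least 30 calls on each strand, and their plus and minus levels differed with an SD of 9.50 points where the counts give 6.03. In 209 of them (4.40%) the strands of this 1 library differed by at least 20 points, and in TCKO this held for 178 of 4317 bins (4.12%). The deeper strand carried a median of 78.3% of a bin's calls in WT and 76.3% in TCKO. Intervals of single bins below are Wilson intervals over calls, and should be read against this spread.

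The difference moved with the WT level. Among the 456 bins from 60% to 70% in WT the median difference was 12.98 points, and among the 1208 from 70% to 80% it was 7.27. It was 3.04 points among the 4481 bins from 80% to 90%, and -0.71 among the 4796 from 90% up. Bins of 4 to 10 CG cytosines chosen by the same WT level, called CpG-poor here, ran through the same order, with medians of 8.30, 5.71, 2.69 and -0.96 points. In each stratum the quartile ranges of CpG-dense and CpG-poor bins overlapped. Over all strata the CpG-poor bins had a median of 3.25 points over 372562 bins, and 68.0% of them were higher in TCKO. The WT level sets the stratum and enters the difference, so this order is a description with no test.

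**Figure D2:**
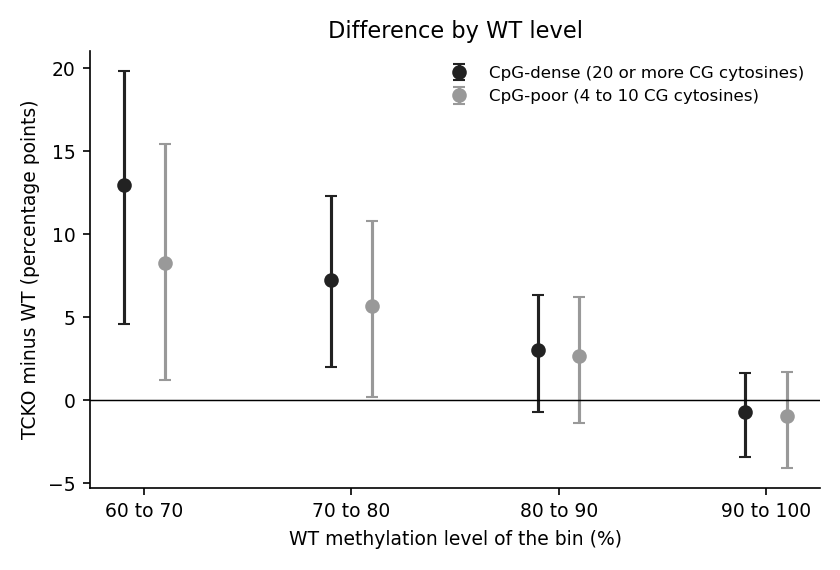
Median TCKO minus WT difference (y axis, percentage points) by WT level of the bin (x axis, %), for CpG-dense bins (black) and CpG-poor bins (grey), with bars giving the quartiles. In both kinds the median is smaller with each step to the right and is below 0 in the highest stratum.

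The densest bins differed least in the upward direction. The 4156 bins with 20 or 21 CG cytosines had a median difference of 2.04 points and a median WT level of 87.9%. With 22 or 23 cytosines the median difference was 1.42 points, with 24 to 27 it was 0.94, and with 28 to 35 it was 0.21. The 246 bins with 36 or more cytosines had a median of -0.55 points, with 115 higher, 130 lower and 1 equal. Their median WT level was 90.7%, against 90.9% with 28 to 35 cytosines. Depth also differed between these classes, with a median of 182 WT calls in the densest and 120 in the sparsest, and its part was not tested.

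All 19 autosomes had a median difference above 0. The lowest was 0.80 points on chromosome 13 with 616 bins, and the highest was 2.24 on chromosome 16 with 405 bins.

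Much of this set is repetitive DNA. The reference soft-masks repeats, and 3257 of the bins (29.8%) were masked over their whole length while 2635 (24.1%) held no masked base. Among CpG-dense bins below 20% in WT, 0.0956% were fully masked and 49.4% held no masked base. The median 24-base stretch of a bin occurred once in the autosomes for 5285 bins (48.3%), and more than 100 times for 2905 (26.6%). Since the authors kept uniquely mapped reads only, the calls of repeat bins come from the copies or parts of copies that a read can place.

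Repeat bins were almost level between the libraries. The median level of fully masked bins was 90.2% (WT) and 90.5% (TCKO), with a difference of 0.26 points and quartiles of -2.78 and 3.45. Bins without a masked base had 86.8% and 89.9%, with a difference of 2.80 points and quartiles of -1.36 and 7.25. By copy number the median difference was 2.32 points in the single-copy bins, 0.46 in those with over 100 to 1000 copies and 0.10 in the 311 with over 1000 copies. Of the 144 bins higher by at least 20 points, 17 were at least 75% masked, as were 16 of the 53 lower by at least 20 points and 45.2% of all chosen bins. The WT level of repeat bins was also higher, and its part was not tested.

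Some stretches of sequence recurred in many of the bins. Bins were grouped by 24-base stretches that many of them shared, a step chosen after the data were seen. The largest group held 799 bins (7.30%) on 19 chromosomes, fully masked in the median, and its median level was 92.3% (WT) and 92.5% (TCKO). The next held 399 bins, with 91.1% and 91.3%, and a group of 343 bins had 90.9% and 90.6%. A group of 346 bins shared a run of CA dinucleotides, with a median of 55.5% of the bin masked, and had 94.4% and 95.5%. The 6 largest groups together held 2285 bins (20.9%), and the median difference of each lay between -0.15 and 1.60 points.

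The DNA 2 kb to either side differed more between the libraries than the bins themselves. The WT level chose the bins and not this DNA, so the contrast is a description and was not tested. Sides are given in reference coordinates, without regard to the direction of genes. Around bins under 25% masked, the level 2 kb to the left was 72.8% in WT and 79.7% in TCKO, a difference of 6.85 points. In the bin's first 100 bp it was 85.1% and 88.1%, a difference of 3.03. At 2 kb to the right the difference was 6.67 points. Around bins at least 75% masked the difference was 2.45 points at 2 kb to the left, 0.37 in the bin's first 100 bp and 2.73 at 2 kb to the right. The 12547 adjacent bins that were not chosen themselves and had at least 20 calls in each library held a median of 10 CG cytosines. They went from 85.4% to 87.5%, with a median difference of 2.09 points, and 93.5% of them were at or above 60% in WT. The median distance to the nearest unmethylated CpG-dense bin was 72800 bp, and 79 of the chosen bins (0.722%) lay within 1 kb of one. For this distance an unmethylated bin needed at least 20 WT calls, with no minimum in TCKO. No other set of bins was measured for comparison. Those 79 had a lower WT level, with a median of 80.4%, and a median difference of 1.64 points.

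**Figure D3:**
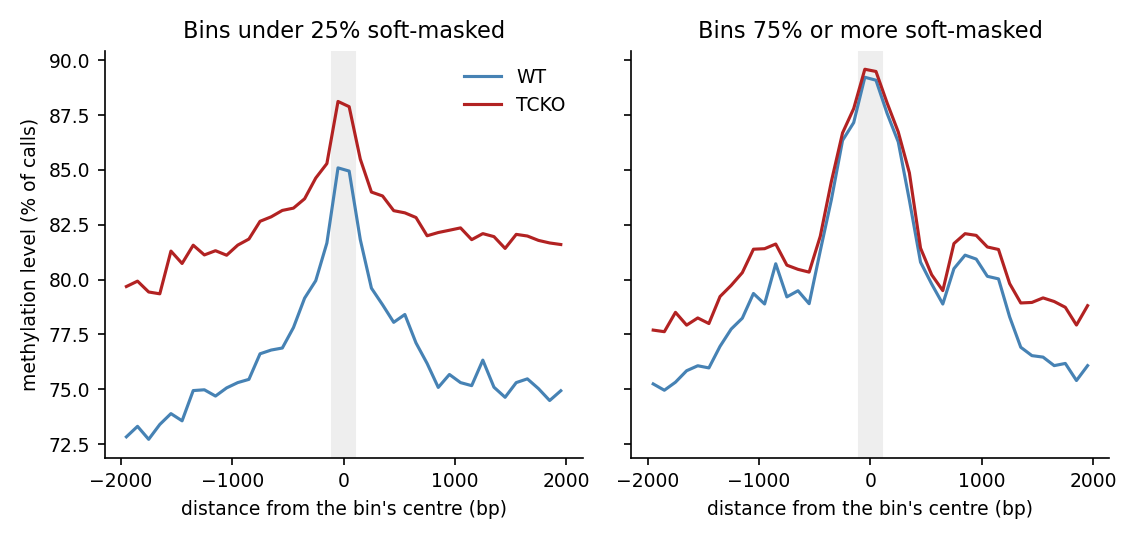
Pooled methylation level (y axis, % of calls) in 100 bp windows by distance from the bin's centre (x axis, bp), WT in blue and TCKO in red, for bins under 25% soft-masked (left) and at least 75% soft-masked (right), with the bin shaded. Levels peak in the bin in both libraries, and the gap between the lines is narrowest there in the left panel. In the right panel it is 0.37 and 0.40 points in the bin and 0.34 points 200 to 300 bp to the left of the centre. The WT level chose the bins and not the DNA around them.

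The bins lay mostly outside promoters. By the bin's midpoint in GENCODE M21, 5165 (47.2%) were intergenic and 2940 (26.9%) intronic, 978 (8.94%) lay in coding exons, 795 (7.27%) in promoters (1000 bp before to 100 bp after a transcript start) and 665 (6.08%) at transcript ends. Noncoding exons held 251, 3′UTRs 133 and 5′UTRs 14. Of the CpG-dense bins below 20% in WT, 55.9% were in promoters and 11.1% intergenic. Of the CpG-poor methylated bins, 1.30% were in coding exons and 2.96% in promoters.

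**Figure D4:**
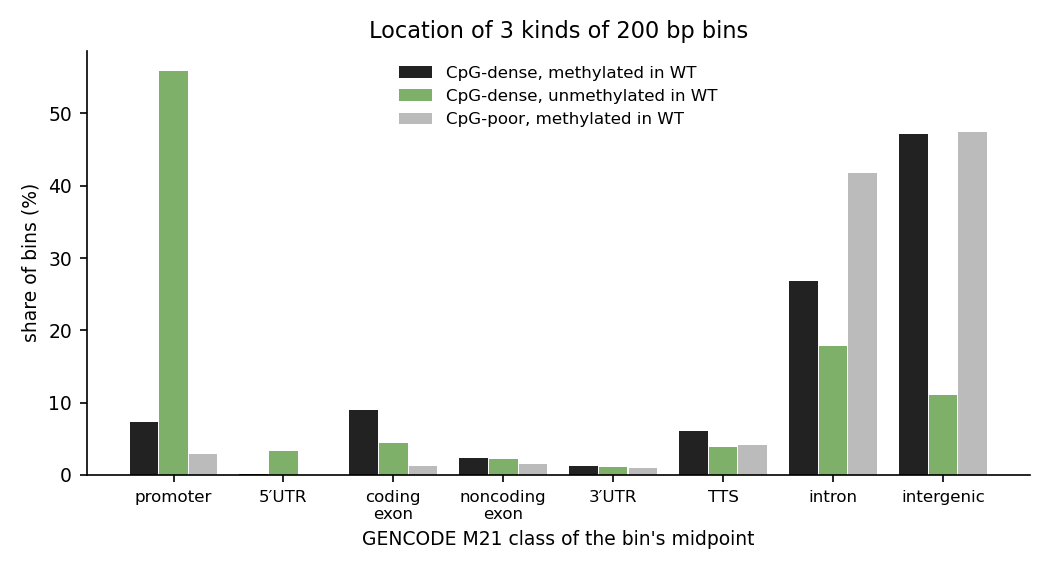
Share of bins (y axis, %) by GENCODE M21 class of the midpoint (x axis) for 3 kinds of bins, CpG-dense methylated (black), CpG-dense unmethylated (green) and CpG-poor methylated (grey) in WT. The unmethylated CpG-dense bins sit in promoters at 55.9%, and the methylated ones at 7.27%, with 47.2% intergenic.

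The difference was small in each class. The median was 1.79 points in promoters, 2.18 at transcript ends, 2.09 in coding exons, 2.94 in 3′UTRs, 1.65 in introns and 0.79 in intergenic bins, where 68.2% of bins were at least 75% masked. Promoter bins held 17 of the 144 that were higher by at least 20 points and 13 of the 53 that were lower. Introns held 59 and 9, and intergenic bins 41 and 16.

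Of the 795 promoter bins, 324 (40.8%) had a processed pseudogene as the nearest transcript start and 322 (40.5%) a protein-coding gene. Of 20807 autosomal protein-coding genes, 3203 had a CpG-dense bin with enough calls within 1 kb of a transcript start and 517 of those had a chosen bin there. The 978 coding-exon bins lay in 824 genes, and 292 of them (29.9%) fell in the last exon of a transcript. The genes with the most coding-exon bins were Fat1 with 15, Ttn (titin) with 9, Plec with 7 and Tenm3 (a teneurin) with 7.

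By whole gene, Gm20388 held the most bins, with 34 over 4434882 bp (chr8:119910841-124345722), a model that spans other genes. Its bins pooled to 88.0% in WT and 90.4% in TCKO. Fat1 (chr8:44935447-45052257), an atypical cadherin, held 21 bins in 116811 bp, none at least 75% masked, 15 of them in coding exons. Each Fat1 bin was high in both libraries, from 83.5% to 98.8% in WT and from 87.3% to 100% in TCKO, and the pooled level went from 93.5% to 94.8%. Camta1 (chr4:150917322-151861876), a transcription activator, held 16 bins, from 63.1% to 95% in WT and from 77.8% to 94.5% in TCKO, with a pooled difference of 4.22 points. The lincRNAs C230088H06Rik and Gm26624 on chromosome 4 overlap each other and held 19 and 16 bins, many of them shared, with pooled levels of 76.1% to 78.2% and 75.5% to 77.2%.

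Short DNA strings were counted on both strands of each bin, without regard to overlap. TGCCGC was in 18.5% of the chosen bins, in 15.3% of the unmethylated CpG-dense bins and in 3.00% of all bins tested. TCCCGC was in 8.50%, 25.7% and 3.18%, and CACGTG in 5.78%, 5.12% and 4.03%. In bins without a masked base CACGTG was in 8.80% of the chosen and 4.94% of the unmethylated ones, and TCCCGC in 10.8% and 29.0%. TGCCGC was in 12.6% of the chosen and 15.8% of the unmethylated ones there, the opposite order to that over all bins. Bins with CACGTG had a median difference of 1.97 points and those without it 1.28, with TGCCGC 0.82 and 1.47, and with TCCCGC 1.79 and 1.27. The quartile ranges of bins with and without each string overlapped.

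Most chosen bins stood alone. They formed 10207 runs of adjacent bins, of which 9530 were single bins, 624 were pairs, 49 were runs of 3 and 4 were runs of 4. The first run of 4 lay in Plec coding exons (chr15:76179401-76180200) and went from 84.4% (81.4 to 87.0) of 654 calls in WT to 85.3% (82.1 to 88.0) in TCKO. The second was the Peg10 run (chr6:4747601-4748400), which went from 78.8% (74.9 to 82.2) to 75.1% (71.5 to 78.4). The other 2 were intergenic and almost fully masked, on chromosome 18 (chr18:74259401-74260200, from 89.8% to 89.3%) and on chromosome 12 (chr12:43670601-43671400, from 87.5% to 83.2%). In each of the 4 runs the intervals of the libraries overlapped. Over single bins the intervals did not overlap in 843 of the 10941 (7.70%), where they did not in 12.5% of all bins tested, and the WT level chose the former.

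The 4 runs of 3 with the most calls differed by no more than 3.13 points. A run over the end of Drg1 and a start of Sfi1 (chr11:3193001-3193600) had 3602 calls in WT and 2892 in TCKO, far more than the median bin, with 76.1% (74.7 to 77.5) and 73.0% (71.3 to 74.6), and was the only one of them without overlap of the intervals. Intergenic runs at chr19:5316401-5317000 and chr2:51886201-51886800 had 82.4% and 82.0%, and 94.1% and 94.4%. A run in Gm49692 (chr12:20233801-20234400) had 73.9% and 71.6%. Of the densest bins, Dact3 (chr7:16885601-16885800) had 75.4% of 313 calls in WT and 71.3% of 411 in TCKO. The Grb10 promoter bin had 94.9% and 94.6%. An intergenic bin at chr8:109414201-109414400 with 32 CpGs had 96.3% (93.9 to 97.7) and 85.1% (82.3 to 87.5), and was the only one of these 3 without overlap of the intervals. It was 99.5% masked and lower on the minus strand only. That strand had 96.8% of 308 calls in WT and 83.3% of 651 in TCKO, while the plus strand had 94.7% of 94 and 100% of 79.

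Germline genes are silenced in somatic cells by methylation of their CpG-rich starts. Of 39 such genes found in the annotation, 14 had a CpG-dense bin with enough calls within 1 kb of a transcript start. Of the 14, 11 had a chosen bin there, 13 bins in all, where 517 of 3203 protein-coding genes did. Of these bins 6 were higher and 7 lower in TCKO, with a median of -0.84 points and none at least 20 points higher or lower. In TCKO the lowest stood at 73.7%. Dazl (a germ cell RNA-binding protein) went from 90.1% (85.6 to 93.3) to 85.1% (79.2 to 89.5) over its 2 bins. Sycp3 (a synaptonemal complex protein) went from 77.8% (68.2 to 85.1) to 73.7% (62.8 to 82.3), and Mov10l1 from 83.1% (73.2 to 89.9) to 92.4% (83.5 to 96.7).

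Hormad1 and Zcwpw1 were the germline genes whose intervals did not overlap between the libraries, 2 of 13 bins, where this held for 7.70% of all chosen bins. Hormad1 (bin at chr3:95559801-95560000, intron) went from 63.4% (55.0 to 71.1) to 81.8% (75.3 to 86.8), higher on both strands, from 68.9% to 83.3% on the plus strand and from 60.7% to 81.1% on the minus strand. Zcwpw1, a histone reader of meiosis, went from 99.1% (95.2 to 99.8) to 86.0% (78.4 to 91.2) at 903 bp into the gene, while 3 other CpG-dense bins at its start were below 20% in WT. The Hormad1 bin is close to the 60% limit of the rule.

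Imprinted genes carry methylation on 1 parental allele, so a level between the extremes is their usual state. Of 41 such genes, 22 had a CpG-dense bin with enough calls at a start. Of the 22, 10 had a chosen bin there, where 517 of 3203 protein-coding genes did. They held 15 bins in all, of which 3 were shared by the neighbours Peg10 and Sgce. Of the 15 bins, 5 were higher and 10 lower in TCKO, with a median of -1.04 points. None was higher by at least 20 points, where 1.32% of all chosen bins and 9.13% of all bins tested were. Lower by at least 20 points were 4, where 0.484% and 0.232% were. The rule used the WT level, so a bin of intermediate level was chosen only where its WT calls read high. A lower TCKO level can follow from that choice alone, and nothing is read from these counts and shares.

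Those 4 bins were in 3 genes. Mcts2, a retrogene within H13, went from 74.4% (66.1 to 81.2, 125 calls) to 34.1% (24.8 to 44.9, 82 calls) at chr2:152687001-152687200 and from 73.9% to 53.8% in the next bin. Inpp5f, an inositol phosphatase gene with an imprinted start, went from 71.0% (61.5 to 79.0) to 49.0% (39.2 to 58.8) at chr7:128688401-128688600, while its other start stayed at 91.2% and 90.1%. Snrpn, a splicing protein gene, went from 76.6% (68.9 to 82.9) to 54.9% (44.1 to 65.2) at chr7:60005001-60005200.

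The strands of these bins did not all behave alike. The Inpp5f bin at +12 bp was lower on both, with 95.7% of 23 plus-strand calls and 63.6% of 77 minus-strand calls in WT and 50% of 38 and 48.3% of 58 in TCKO. The first Mcts2 bin had 88.8% of 98 plus-strand calls and 22.2% of 27 minus-strand calls in WT, and 27% of 74 and 100% of 8 in TCKO. The next Mcts2 bin had 80.6% of 93 and 38.9% of 18 in WT, and 49.2% of 65 and 73.3% of 15 in TCKO. Both Mcts2 bins were thus lower on the plus strand only. Snrpn had 71.4% of 21 and 77.6% of 116 calls in WT, and in TCKO 54.9% of 82 minus-strand calls and none on the plus strand. The first Peg10 bin (chr6:4747601-4747800) had 93.5% of 46 plus-strand calls and 23.1% of 26 minus-strand calls in WT. In TCKO it had 83.3% of 78 and 100% of 5, so its plus strand was lower although the pooled level was higher. The parental allele of a call is not given, so the share of each allele was not measured.

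The other imprinted genes were closer. Grb10 had 95.4% (93.6 to 96.8) and 96.2% (94.5 to 97.4) over 2 bins, the highest of the list, although 2 other CpG-dense bins at its starts lay from 20% to below 60% in WT. Kcnq1ot1, a long noncoding RNA that silences its neighbours, had 81.9% and 85.3%. Meg3, another imprinted noncoding RNA, had 75% and 69.3%, and the Gnas and Nespas bins had 70% and 74.0%, and 76.4% and 83.3%. Peg10, a gene of retrotransposon origin, had 78.8% and 75.1% over 4 bins, of which the first went from 68.1% (56.6 to 77.7) to 84.3% (75 to 90.6) and the last from 84.4% (78.5 to 88.9) to 68.5% (62.0 to 74.4). On the plus strand alone the first bin was lower in TCKO, as was the last.

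**Figure D5:**
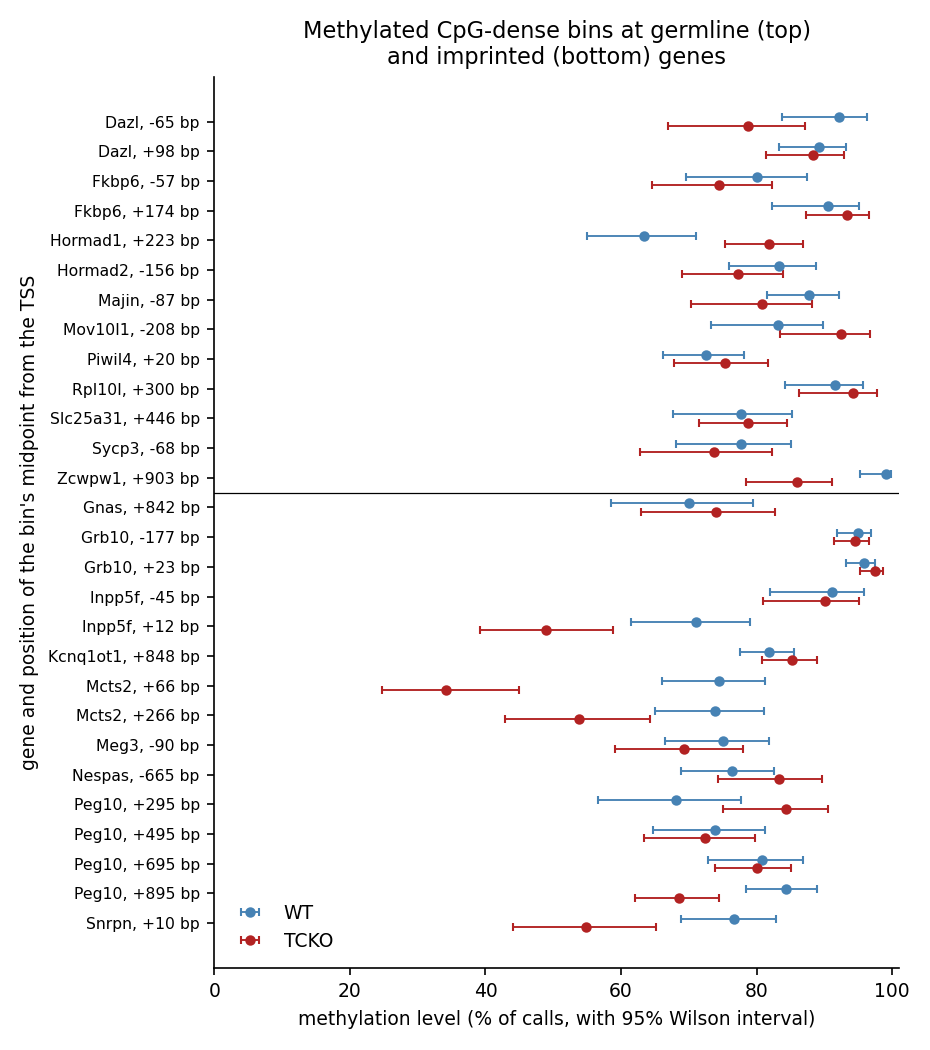
Methylation level (x axis, % of calls) in WT (blue) and TCKO (red) with 95% Wilson intervals for each chosen bin within 1 kb of a transcript start of a germline gene (top) or an imprinted gene (bottom), with the bin's distance from that start. Mcts2, Inpp5f at +12 bp and Snrpn lie lower in TCKO by more than 20 points, and Hormad1 lies higher by 18.3.

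No listed gene of bone or of development had one of these bins at a start, although few bone genes could be judged. Of 33 skeletal genes, 5 had a CpG-dense bin with enough calls at a start and none of these was chosen. Among all protein-coding genes with such a bin, 517 of 3203 had a chosen one, so 5 genes are too few to read. Of 70 developmental transcription factors, 39 had a CpG-dense bin at a start and none of these was chosen, which was not tested. In gene bodies, 4 skeletal genes held chosen bins. Spp1 (osteopontin) went from 87.5% (80.9 to 92.0) to 96.1% (92.2 to 98.1) in a coding exon at chr5:104439201-104439400, and Dmp1 (dentin matrix protein) had 89.5% and 90%. Acan (aggrecan) had 94.7% and 96.1%. Fgfr2, a fibroblast growth factor receptor, had 88.7% and 92.6% over the 8 bins of a gene model that also spans other genes.

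Of the transcription factors, 7 held a chosen bin in the body. Tbx2 went from 60.2% (49.5 to 70.1) to 44.0% (35.6 to 52.8) in a coding exon, Pax5 from 64.0% to 79.4% and Tbx15 from 64.2% to 78.8% in introns. These WT levels are near the limit of the rule. Gata3 had 88.2% and 93.7%, Tbx5 88.8% and 87.0%, and Irx5 83.8% and 85.6%.

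Of 12 genes of DNA methylation and the TET pathway, 3 had a CpG-dense bin with enough calls within 1 kb of any annotated transcript start. All 3 had a chosen one, at starts inside the gene. Among all protein-coding genes with such a bin, 517 of 3203 had a chosen one. Tdg, the glycosylase that removes oxidised methylcytosine, had 92.4% and 96.6%. Tet1 had 89.0% and 83.4%, and Dnmt3a, a de novo methyltransferase, had 82.6% and 86.7%. The Tet1 bins (chr10:62879601-62880000) lay inside a gene that starts at 62908996 on the minus strand. The Dnmt3a bin (chr12:3907601-3907800) lay inside a gene that starts at 3806007. Both were classed as transcript ends. Dnmt3a also had 1 CpG-dense bin at a start that was below 20% in WT. Dnmt1 held 1 bin in its body, with 83.6% and 88.3%, and Tet3 held 3, with 77.4% and 80.6%. Of 57 clustered protocadherins, 13 had a CpG-dense bin at a start and 1 of these was chosen, Pcdhga2, with 75.8% (66.1 to 83.5) and 51.7% (39.3 to 63.8). Its TCKO level rests on 60 calls, the minimum of the rule. By strand it had 72.4% of 76 plus-strand and 93.3% of 15 minus-strand calls in WT, and 33.3% of 18 and 59.5% of 42 in TCKO. Of 385 Zfp zinc finger genes, 56 had a CpG-dense bin at a start and 4 had a chosen one. They were Zfp277 at 75.2% and 85.8%, Zfp541 at 64.7% and 56.5%, Zfp560 at 90.6% and 82.8% and Zfp827 at 78.4% and 91.7%. The bins of Zfp541, Zfp560 and Zfp827 were intronic. Those of Zfp277, Zfp560 and Zfp827 lay at transcript starts inside the gene, away from its outer start. Of the other CpG-dense bins at starts of Zfp541, 1 was below 20% and 2 lay from 20% to below 60% in WT. Zfp827 had 1 below 20%.

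To measure a difference that the choice had not used, bins were chosen again on the plus-strand WT calls (at least 30, at or above 60%) and the libraries were compared on the minus-strand calls. This gave 3934 bins, of which 3611 were among the 10941. On the minus strand their median went from 89.2% to 90.7% between WT and TCKO, with a median difference of 1.24 points, and 2265 (57.6%) were higher. With a Fisher exact test (2-sided, p-values adjusted by Benjamini-Hochberg over all 616126 bins tested), 77 (1.96%) were higher by at least 20 points, where 6.81% of all bins tested were. Lower by at least 20 points were 26 (0.661%), where 0.184% of all bins tested were. A bin at the median WT level of 89.2% cannot rise by 20 points, while a bin below 20% cannot fall by as much. Nothing is therefore read from either pair of shares. The test compares these 2 libraries, not the genotypes, and its p-values are too small because calls of 1 read are not independent.

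The other strand rarely gave the same call. With the strands exchanged, 79 bins were higher and 23 lower among 4166. Of 2669 bins that could be tested both ways, 16 were lower on the minus strand and 15 on the plus strand, and 1 of these was lower on both. Higher were 35 on the minus strand and 32 on the plus strand, of which 4 were higher on both. The 1 lower bin lay at a start of Ect2l (chr10:18139401-18139600), 96.5% masked, with 96.3% of 54 minus-strand calls in WT against 33.3% of 39 in TCKO (Fisher exact test, adjusted p = 4.33e-09) and 65.7% against 30.6% on the plus strand. The 4 higher ones were an intergenic bin at chr2:45539001-45539200 and bins in Fndc3b (chr3:27681801-27682000), Atp10a (chr7:58740201-58740400) and Pfdn1 (chr18:36424001-36424200), with minus-strand levels of 71.7% against 95.8%, 71.6% against 93.0%, 64.8% against 96.9% and 63.3% against 91.4%.

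Among the 10 largest falls on the minus strand, 7 were among the 10941 bins. Next to Ect2l, the bin at the end of Celf4, an RNA-binding protein gene (chr18:25478401-25478600), fell from 77.8% of 81 calls to 19.8% of 96 (Fisher exact test, adjusted p = 2.32e-12), while its plus strand had 72.0% and 61.7%. The 5 others were at least 96.0% masked and lay outside exons, and on the plus strand 3 of them were lower and 2 higher in TCKO. Bins in Fggy and Coro2b were not among the 10941, with fewer than 60 TCKO calls.

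Of the 10 largest rises, 4 were among the 10941 bins, at chr6:31804201-31804400, chr5:144473201-144473400, chr8:124784801-124785000 and chr13:72352601-72352800. The first rose from 35.3% of 34 minus-strand calls to 83.0% of 47 (Fisher exact test, adjusted p = 6.50e-04). The other 6 had a minus-strand WT level so low that both strands together were below 60%. The largest, at chr13:71035801-71036000, had 67.6% on the plus strand and 10.8% on the minus strand in WT, and 82.1% and 92.6% in TCKO.

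At the limit of the rule, the 3 bins just inside had a WT level of 60% and the 3 just outside had 59.8%, 59.8% and 59.6%. The TCKO levels were 91.2%, 68.3% and 68.2% inside and 80.5%, 89.6% and 69.8% outside. The depth limit also shaped the set, since 49541 of 65486 bins with at least 20 CG cytosines had under 60 calls in a library. Of the 42647 of these with at least 20 WT calls, 25.4% were at or above 60% in WT and 69.9% below 20%, where 68.6% of the deeper bins were methylated.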

How the data were processed

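WGBS of 1 WT and 1 TCKO library of primary osteoblasts was analysed. Per the labels and the methods, the authors used BSMAP 2.74 on GRCm38 with unique hits only. For each CG cytosine the files deposited by the authors give 2 raw counts, of methylated calls and of all calls, by strand. CASAVA is also named in the submitters' processing notes. Removal of duplicate reads is not given in the sources used here. Calls were summed in 200 bp bins of the 19 autosomes, and all 68781096 autosomal positions were a CG in the reference used here. Each bin took the GENCODE M21 class of its midpoint, in the order promoter, transcript end (100 bp before to 1000 bp after), coding exon, UTR, noncoding exon, intron and intergenic. A bin was assigned to the gene containing its midpoint, otherwise to the nearest protein-coding start. Intervals are 95% Wilson intervals and cover only counting error. With 1 library per genotype no test between genotypes was possible.

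Minus-strand calls of bins chosen on plus-strand WT calls were compared by Fisher's exact test with Benjamini-Hochberg adjustment, with numpy 2.4.6, scipy 1.17.1, pandas 2.3.3 and numba 0.67.0. On simulated data for chromosome 19 (17327 bins), 179 of 200 bins lowered by 45 points were recovered (89.5%) and no unchanged bin was called lower. The simulated calls were independent of each other, unlike those of real reads. This checks the code and gives no rate of false calls for these data.

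The rule, the gene lists and the tests were chosen with earlier results of these data known. Named bins were the 8 longest runs, the 10 largest falls and 10 largest rises in the strand test, the 3 densest bins, the 5 genes with most bins, the 3 bins on either side of the 60% limit, and genes of the 7 lists (germline, imprinted, skeletal, developmental transcription factors, DNA methylation and TET, clustered protocadherins, Zfp) with a chosen bin within 1 kb of a transcript start. A few items that met these rules are not reported here. Alternatives changed the limits on calls, cytosines and level, the grid of bins, the averaging, the library or strand that chose the bins and the definition of a promoter, and left out each autosome in turn.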

Additional observations from a re-analysis of the deposited data

How the results depend on the processing

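No alternative reversed the sign of the median or the pooled difference, the only results for which a reversal was recorded. Of 228 recomputed values 172 stayed within the interval or 1.5 times of the reported value and 56 moved. Leaving out each autosome in turn kept all 133 such values, with 10100 to 10659 bins, a median difference of 1.28 to 1.35 points, 132 to 141 bins higher and 48 to 53 lower by 20 points, and 7.13% to 7.37% in promoters. The 10941 bins became 17961 with at least 30 calls, 3880 with at least 120 calls, 29650 with at least 16 CG cytosines and 4213 with at least 24. The median difference of 1.32 points became 0.97 with at least 120 calls, 1.17 and 0.74 with a WT level from 70% and from 80%, 2.11 and 0.63 with at least 16 and 24 cytosines, and 1.47 and 1.62 with bins chosen by the level pooled over both libraries and by the TCKO level. The 144 bins higher by 20 points became 350 and 28 with at least 30 and 120 calls, 35 and 0 with a WT level from 70% and 80%, 602 and 51 with at least 16 and 24 cytosines, 310 and 457 with bins chosen by the pooled and by the TCKO level, and 229 with the unweighted mean over cytosines. The count of 0 follows from the rule, since a bin from 80% up can gain at most 20 points. The 53 bins lower by 20 points became 205 and 8 with at least 30 and 120 calls. With a WT level from 70% and 80% they became 51 and 33. They became 94 with at least 16 cytosines, 27 with bins chosen by the TCKO level and 167 with the unweighted mean. From 70% the lower bins (51) thus outnumbered the higher ones (35), opposite to the reported 53 and 144. A higher WT level leaves less room for a gain, so nothing is read from this. The promoter share of 7.27% became 8.03% and 6.21% with at least 30 and 120 calls, 6.61% with a WT level from 80%, 6.55% and 8.73% with at least 16 and 24 cytosines, 16.5% with promoters of 2 kb on either side of a start and 2.97% with starts of protein-coding genes only. In the strand test the 77 higher and 26 lower bins became 125 and 45 at an unadjusted p, and 122 and 44 without a minimum difference. Where the cause is not in the alternative's own construction it was not tested. With 1 library per genotype, the difference between animals is unknown, and no paired analysis was possible because no group has replicates.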
